A study of Mus musculus with 19 samples.

Results

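The 11 saline-treated libraries of a mouse prefrontal RNA-seq experiment were divided by their own level of Drd2, the gene of the D2 dopamine receptor, into 5 Drd2-high and 6 Drd2-low libraries, out of 19 libraries in all. The division was chosen on a measured value: a library was Drd2-high where Drd2 reached at least 20 CPM (the count of a gene per 1000000 counted reads of its library) and Drd2-low below that. Every gene difference between the 2 classes is therefore a description of these libraries, and no test of it is offered as support. Drd2 itself was left out of the genes compared.

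The study profiled left prelimbic cortex, a medial prefrontal area, taken on day 3 after surgery. Mice had received saline or MK-801, an NMDA receptor blocker used to model schizophrenia, at 0.2 mg per kg daily for 2 weeks. c-MSST is the study's magnetic stimulation, in which ferumoxytol, an iron oxide nanoparticle, was placed in the left prelimbic cortex and a pulsed magnetic field was applied. The groups were Control (saline, n = 6), Control+c-MSST (saline with c-MSST, n = 5), SCZ (MK-801, n = 4) and SCZ+c-MSST (MK-801 with c-MSST, n = 4). All were made as stranded total RNA libraries. The labels give no strain, sex, age or batch. They leave unsaid if Control and SCZ mice underwent surgery and if each library came from 1 mouse, so p-values measure the spread between these libraries, which may be technical in part.

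The striatum, which lies beneath the frontal cortex, consists mostly of medium spiny neurons (MSNs). These GABAergic projection neurons form a D1-type, which carries the D1 receptor with substance P and dynorphin, and a D2-type, which carries the D2 and adenosine 2A receptors with enkephalin. Both types respond to dopamine through a cyclic AMP cascade built on striatum-enriched proteins such as Gαolf, adenylyl cyclase 5 and DARPP-32, whereas cortical neurons hold these transcripts at lower levels.

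In the Drd2-high class, Drd2 stood at 35.1 CPM in Control replicate 1, 69.6 in Control replicate 4, 63.1 in Control replicate 5, 56.9 in Control+c-MSST replicate 1 and 40.4 in Control+c-MSST replicate 2. In the Drd2-low class, the lowest value was 1.28 CPM (Control+c-MSST replicate 6), the median fell between 3.97 (Control replicate 2) and 5.66 (Control+c-MSST replicate 7), and the highest was 15.2 (Control+c-MSST replicate 4). The libraries nearest the threshold were thus Control replicate 1 at 35.1 CPM just inside and Control+c-MSST replicate 4 at 15.2 just outside, with no library between. All 8 MK-801 libraries, which the rule did not use, lay at 40.5 to 99.7 CPM, so none would fall in the Drd2-low class. On GRCm38 (mm10), Drd2 occupies chr9:49340627-49408177 on the plus strand.

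Both c-MSST labels held both classes. Drd2-high libraries made up 3 of 6 Control and 2 of 5 Control+c-MSST libraries (Fisher's exact test, two-sided, p = 1). The library total, which is the denominator of CPM and so entered the rule, is given as a description. Total counts averaged 60451085 ± 8362698 (SD, n = 5) in Drd2-high and 66898675 ± 1283368 (SD, n = 6) in Drd2-low libraries. Totals ran from 50140626 to 72866386 in the Drd2-high class and from 65100267 to 68524755 in the Drd2-low class, so the shallowest libraries were Drd2-high. Genes detected averaged 16607 ± 118 and 16636 ± 80 (two-sided exact permutation p = 0.636, 0.636 when adjusted over 3 measures with the totals), and the 20 most abundant genes took 5.11 ± 0.250% and 5.02 ± 0.191% of counts (exact permutation p = 0.511, adjusted 0.636).

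Transcripts known from MSNs were higher in the Drd2-high class. Of 48 MSN markers in 3 lists, all of which were abundant enough to be tested, 47 had a higher fitted level in Drd2-high than in Drd2-low libraries, 25 were called higher at an adjusted p under 0.05 by edgeR and none was called lower. In 35 of the 48, every Drd2-high library lay above every Drd2-low one. Over all 16252 genes tested, 110 (0.677%) were called higher and 23 (0.142%) lower, and 211 (1.3%) had every Drd2-high library above every Drd2-low one against 139 (0.855%) with the reverse. The median log2 difference was 1.11 over the 48 markers and -0.0027 over all genes. Because the libraries were selected on a gene of the same contrast, nothing is read from these shares. In bulk tissue, more cells of a type and more RNA per cell cannot be told apart, nor can tissue taken from the striatum and MSN transcripts made in the cortex.

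Markers shared by both MSN types were the most complete group, with 18 of 30 called higher, 30 of 30 with a positive difference and a median log2 difference of 1.11. Their summed level was 4371 to 7229 CPM in Drd2-high libraries and 2428 to 3294 in Drd2-low libraries, with no overlap. The D1-type list had 4 of 9 members called higher and a median of 1.07, and its summed level was 172 to 272 CPM against 125 to 149. The D2-type list had 3 of 9 called higher and a median of 2.26, and its summed level was 515 to 684 CPM against 223 to 425. Isl1, a transcription factor in the D1-type list, had the largest fitted difference of the 48 at 3.68 ± 0.93 (SE). It was followed by Adora2a and by Six3, a transcription factor of D2-type neurons, at 3.27 ± 0.82, and none of these was called. Within the Drd2-low class, Isl1 ran from 0 to 60 counts and Six3 from 0 to 140. The fitted sizes of Isl1 and Six3, and so their rank, depend in part on the treatment of zeros.

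**Figure D1:**
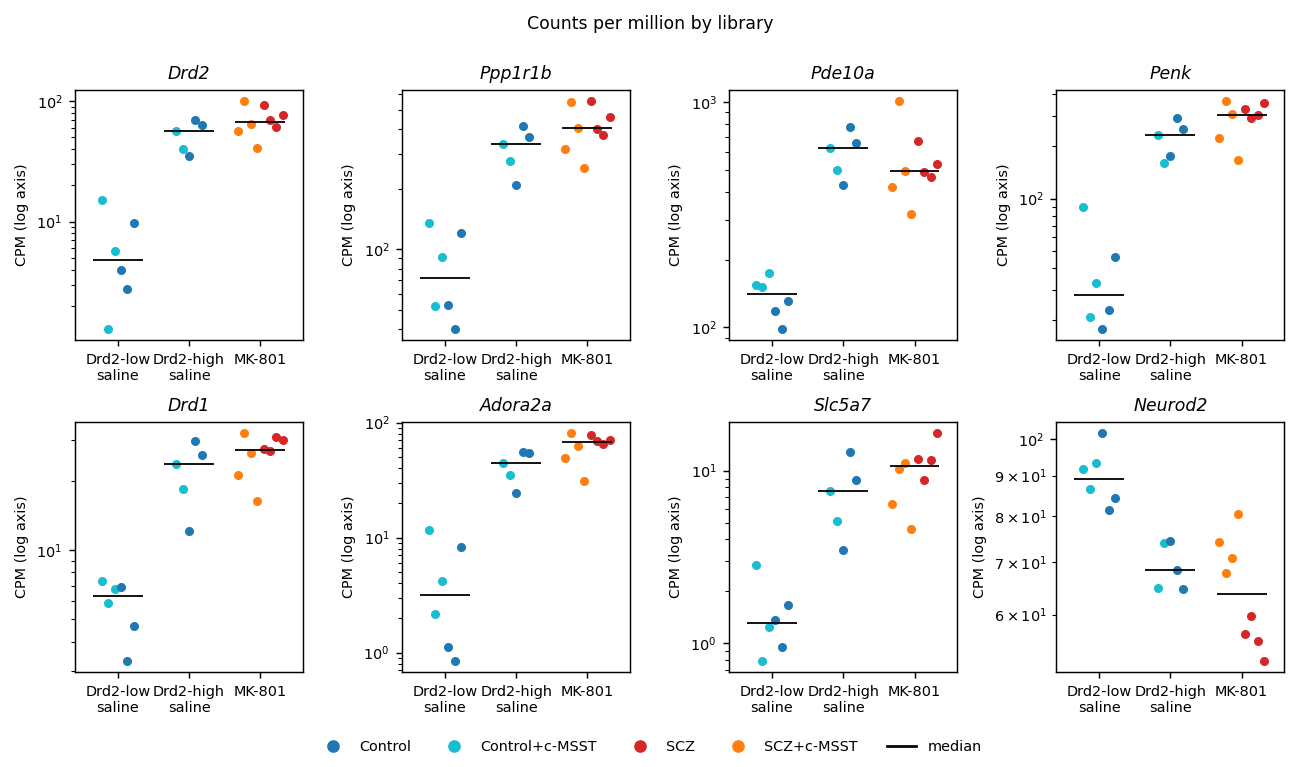
Level of 8 genes in each of the 19 libraries, in CPM on log axes, by Drd2 class of the saline libraries and for the MK-801 libraries; points are libraries coloured by group and bars are medians. Drd2 defines the classes; for Ppp1r1b, Pde10a, Penk, Drd1, Adora2a and Slc5a7 every Drd2-high library lies above every Drd2-low one, and for Neurod2 every one lies below.

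Genes for the D1 receptor, its G protein, adenylyl cyclase 5 and several phosphodiesterases stood higher in the Drd2-high class. Drd1, the D1 receptor, was at 12.1, 29.8, 26.0, 23.7 and 18.5 CPM in Drd2-high libraries (Control replicates 1, 4 and 5, then Control+c-MSST replicates 1 and 2, the order kept below) and at 3.30 to 7.33 in Drd2-low libraries. Its lowest Drd2-high value was in Control replicate 1, which was both the shallowest library and the Drd2-high library with the least Drd2. The log2 difference was 1.95 ± 0.25. Gnal, which encodes Gαolf, was at 276, 432, 347, 397 and 305 CPM against 139 to 252, a log2 difference of 0.91 ± 0.15. Gng7, its partner γ subunit, was at 164, 359, 266, 253 and 229 CPM against 80.5 to 131, and differed by 1.34 ± 0.20. The 2 classes did not overlap for either G-protein subunit.

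Adcy5, the main striatal adenylyl cyclase, was at 332, 652, 560, 538 and 490 CPM in Drd2-high libraries and 171 to 298 in Drd2-low libraries, a log2 difference of 1.27 ± 0.17. Ppp1r1b, which encodes the phosphatase inhibitor DARPP-32, was at 209, 415, 366, 335 and 277 CPM against 39.98 to 135, a difference of 1.99 ± 0.35. Both had their highest Drd2-low value in Control+c-MSST replicate 4, the Drd2-low library with the most Drd2. Pde10a, which degrades cyclic nucleotides in MSNs, was at 427, 776, 660, 624 and 502 CPM against 98.5 to 175, a difference of 2.15 ± 0.17. Pde1b, a calcium-activated phosphodiesterase, was at 237, 430, 400, 365 and 325 CPM against 136 to 200, a difference of 1.15 ± 0.15. Rgs9, which speeds the shut-off of G-protein signalling, was at 176, 354, 282, 283 and 215 CPM against 35.1 to 90.7, a difference of 2.34 ± 0.27. In all 5 of these genes Control replicate 4 held the highest level.

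In the full list of 20 dopamine receptor signalling genes, which shares members with the MSN lists, 9 were called higher, none lower, and the median log2 difference was 0.45. Some members with broad neuronal expression differed little. The log2 difference was 0.03 for Prkacb, a catalytic subunit of protein kinase A, 0.10 for Pde2a and 0.13 ± 0.07 for Ppp3ca, the calcineurin catalytic subunit. Others did not follow this: for Ppp2r2a every Drd2-high library lay above every Drd2-low one. The other dopamine receptors did not move as a set. Drd3 was at 0.578 to 3.46 CPM in Drd2-high libraries and 0 to 0.445 in Drd2-low ones, Drd4 differed by 0.01 and Drd5 by -0.47, and none of these was called. The list of dopamine synthesis and uptake genes had 0 of 7 called and a median of -0.06.

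The upstream bases of 3 genes of this group are shown because Drd2 set the classes and Adcy5 and Rgs9 rose with it in the MK-801 libraries as well, and each has 1 promoter entry in the RefSeq table for GRCm38.p6. Each is the 250 bases before the RefSeq start, 5′ to 3′ on the gene's strand: Drd2 from chr9:49340153-49340402 (plus), Adcy5 from chr16:35154614-35154863 (plus) and Rgs9 from chr11:109298182-109298431 (minus). Capitals mark the GC box GGGCGG on either strand.
Drd2: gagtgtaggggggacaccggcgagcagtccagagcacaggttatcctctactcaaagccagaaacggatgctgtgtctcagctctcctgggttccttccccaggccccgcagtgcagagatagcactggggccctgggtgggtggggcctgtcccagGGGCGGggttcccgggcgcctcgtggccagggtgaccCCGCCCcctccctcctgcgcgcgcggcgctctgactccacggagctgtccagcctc
Adcy5: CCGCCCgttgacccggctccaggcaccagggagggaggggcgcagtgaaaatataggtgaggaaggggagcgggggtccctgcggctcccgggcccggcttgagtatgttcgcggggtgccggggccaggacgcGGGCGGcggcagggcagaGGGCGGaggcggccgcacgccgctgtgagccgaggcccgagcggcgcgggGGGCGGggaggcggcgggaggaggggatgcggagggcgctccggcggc
Rgs9: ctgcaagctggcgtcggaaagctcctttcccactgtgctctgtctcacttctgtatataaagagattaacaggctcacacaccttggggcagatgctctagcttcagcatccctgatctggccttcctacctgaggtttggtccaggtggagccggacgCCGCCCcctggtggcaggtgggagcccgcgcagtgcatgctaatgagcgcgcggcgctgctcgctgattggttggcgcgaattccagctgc
The GC box occurred 2, 4 and 1 times, and is present in 32.7% of all 32851 windows of this length in the table. The cyclic AMP response element TGACGTCA (1.55% of windows) and the nuclear receptor half-site AGGTCA (14% of windows), both searched on either strand, were in none of the 3 windows. These matches describe letters only.

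Neuropeptide genes of both MSN types were separated between the classes. Penk, the precursor of enkephalin in D2-type neurons, was at 175, 291, 253, 234 and 160 CPM in Drd2-high libraries. It was at 17.8 to 89.3 CPM in Drd2-low libraries, where Control+c-MSST replicate 4 was highest, and the log2 difference was 2.61 ± 0.44. Tac1, the precursor of substance P in D1-type neurons, was at 15.1, 39.2, 30.3, 31.1 and 20.7 CPM against 3.07 to 9.88, a difference of 2.27 ± 0.32. Neither peptide gene overlapped between the classes. Pdyn, the dynorphin precursor, also did not overlap (31.5 to 55.3 against 11.4 to 30.9 CPM) but was not called. Of 10 opioid and tachykinin genes, 3 were called higher (Penk, Tac1 and the substance P receptor gene Tacr1, 1.42 ± 0.18), 10 had a positive difference and the median was 1.29. The δ opioid receptor gene Oprd1 differed by 0.10 ± 0.16.

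Adora2a, an adenosine receptor of D2-type neurons, had a larger difference than the called genes of the cascade. It was at 24.3, 55.8, 54.8, 44.9 and 34.9 CPM in Drd2-high libraries and at 0.845 to 11.6 in Drd2-low ones, a log2 difference of 3.27 ± 0.69. The Drd2-low libraries spread widely among themselves, and the gene was not called. Gpr6, an orphan receptor of D2-type neurons, was at 9.92 to 14.3 CPM against 1.302 to 4.56 and was called (2.26 ± 0.31). Scn4b, a sodium channel β subunit, was at 182 to 396 CPM against 24.5 to 159, did not overlap and was not called (1.84 ± 0.52).

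Some markers overlapped or differed little. Grik3, a kainate receptor subunit that cortex also expresses, was at 237 to 275 CPM in Drd2-high and 182 to 316 in Drd2-low libraries and differed by 0.07 ± 0.11. Arpp21, a regulator of calmodulin signalling, was at 557 to 817 CPM against 446 to 619 and differed by 0.47 ± 0.13, without a call. Strn, a calmodulin-binding scaffold, and Ptpn5, the striatum-enriched tyrosine phosphatase, were called with small differences of 0.71 ± 0.07 and 0.41 ± 0.08. Dgkb, a diacylglycerol kinase, was called at 0.62 ± 0.08. The smallest called difference among the shared MSN markers was that of Rgs2, at 0.40 ± 0.08. Eya1, in the D1-type list, was the marker with a negative difference (-0.20).

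Transcription factors of striatal development and identity had 3 of 20 members called higher and a median of 0.91, with 19 of 20 positive. Rarb, a retinoic acid receptor, was at 17.3, 42.3, 27.4, 31.1 and 24.0 CPM against 4.12 to 13.1, a log2 difference of 2.12 ± 0.31. Ebf1, needed for D1-type neurons, was at 9.91 to 12.8 CPM against 5.47 to 7.38, a difference of 0.81 ± 0.10. Dlx5 was the other called member at 0.91. Bcl11b and Meis2, which the cortex also expresses, overlapped between classes. Bcl11b, found in deep-layer projection neurons as well, reached 248 and 222 CPM in Control replicates 4 and 5. It was at only 76.9 to 96.5 in the other 3 Drd2-high libraries. Meis2 was highest in Control replicate 1 and Control+c-MSST replicate 2, at 227 CPM in each. Not every factor shared with the cortex overlapped: Foxp2, which is also in the deep-layer list, did not, nor did Foxp1.

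Markers of the striatal cholinergic interneuron, a large and sparse neuron, were also higher in the Drd2-high class. Of 7 markers, 6 were tested and 4 were called higher, all 6 with positive differences and a median of 2.49. The summed level was 11.5 to 45.5 CPM in Drd2-high and 3.37 to 12.8 in Drd2-low libraries, so the classes overlapped slightly. Slc5a7, the choline transporter, was at 3.45, 12.9, 8.77, 7.63 and 5.11 CPM against 0.788 to 2.83, a difference of 2.35 ± 0.40. Slc18a3, the vesicular acetylcholine transporter, was at 0.638 to 2.48 CPM against 0.0876 to 0.371 and differed by 2.64 ± 0.47. Lhx8, a homeobox factor of these neurons, was at 0.618, 2.92, 1.88, 1.88 and 0.631 CPM in Drd2-high libraries. In the Drd2-low class Lhx8 had no counts in 5 of 6 libraries and 4 counts (0.0608 CPM) in Control replicate 7, and 3 counts would be 0.0438 to 0.0461 CPM there. The fitted fold of Lhx8 depends on the treatment of these zeros and is not given. Chat, the acetylcholine synthesis gene, overlapped (1.97 to 5.55 against 0.165 to 2.12 CPM) and was not called.

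**Figure D2:**
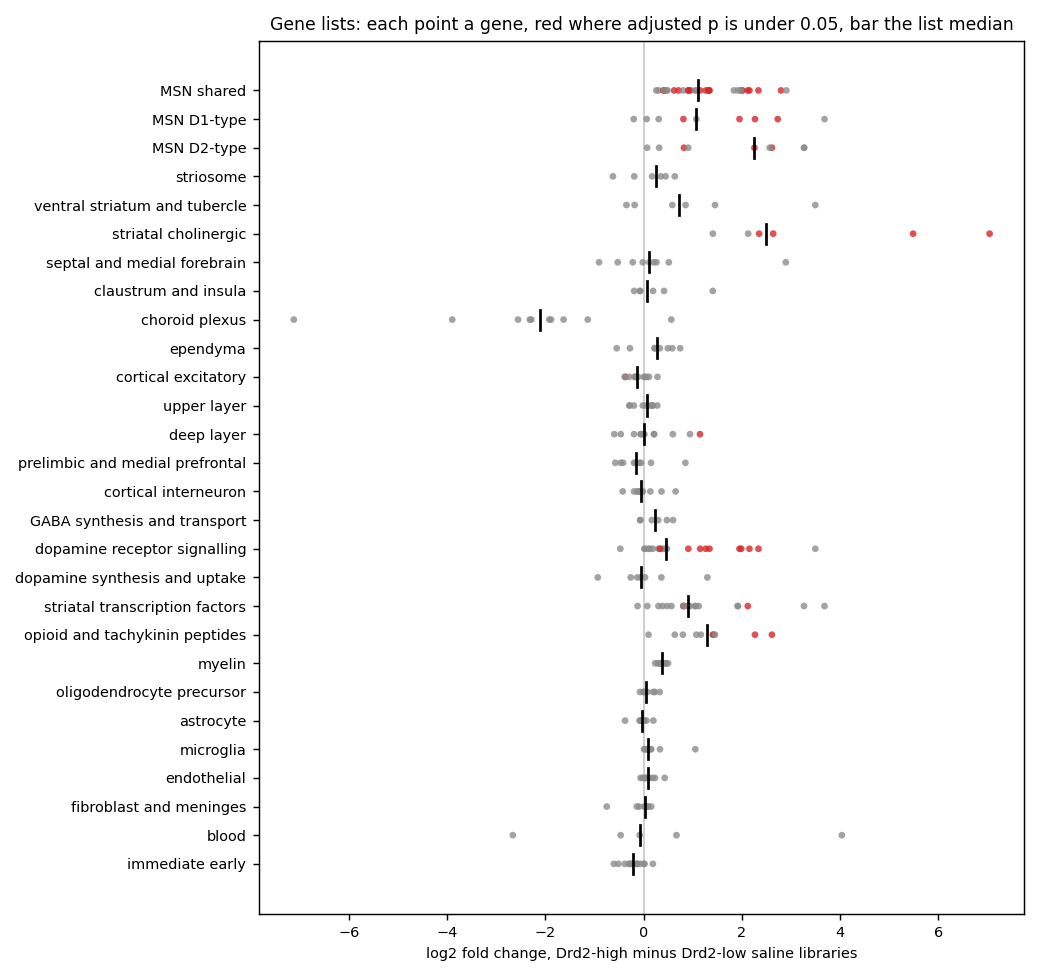
Log2 fold change of Drd2-high against Drd2-low saline libraries for the members of 28 gene lists; each point is a gene, red where the adjusted p is under 0.05, and the bar is the list median. The MSN and cholinergic lists have medians of 1.07 to 2.49, most cortical and glial lists lie near 0, and the cholinergic gene farthest right (Lhx8) has a fitted value that depends on zeros.

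The 10 genes with the largest called increases, by a rule that kept genes averaging at least 1 CPM, were Pou3f4, Sh3rf2, Ankk1, Slc10a4, Cd4, Syndig1l, Ptprv, Slc35d3, Dsg1c and Htr1d. Syndig1l, a synapse-differentiation-induced gene relative enriched in striatum, was at 25.6, 61.6, 51.7, 49.9 and 37.8 CPM against 2.51 to 13.99, a log2 difference of 2.80 ± 0.46. Sh3rf2 was at 15.3, 22.9, 20.9, 23.4 and 14.1 CPM against 0.219 to 4.45 and differed by 3.25 ± 0.59. Cd4, best known from T cells and microglia, was at 11.4, 19.0, 18.1, 14.6 and 13.6 CPM against 0.630 to 4.20, a difference of 2.86 ± 0.53. In the microglial list 0 of 11 were called and 11 of 11 differences were positive, with a median of 0.09, and Csf1r, its most abundant member, was at 105 to 124 CPM against 99.0 to 121. Slc10a4, a vesicular transporter-like protein of cholinergic and monoaminergic terminals, was at 1.12 to 5.26 CPM against 0.191 to 0.793 (2.88 ± 0.52). Htr1d, a serotonin receptor, was at 1.80 to 7.23 CPM against 0.180 to 1.63 (2.65 ± 0.49).

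Ankk1 lies next to Drd2 on chromosome 9, at 9:49415194-49427021 on the opposite strand, 7016 bases beyond the end of Drd2. It was at 1.64, 3.92, 4.00, 2.64 and 2.00 CPM in Drd2-high libraries and 0.0461 to 0.771 in Drd2-low ones, a log2 difference of 3.24 ± 0.59. The sources used here do not state if strand entered the counting, so transcripts running on from Drd2 and Ankk1 transcripts cannot be told apart. Ttc12, 9941 bases further along, differed by 0.32 and was not called.

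Pou3f4, a POU-domain factor of the developing striatum, had the largest fitted difference, but its pattern was not that of the class. It was at 8.12, 16.6 and 10.7 CPM in the 3 Drd2-high Control libraries and had no counts in the other 8 saline libraries, both Drd2-high Control+c-MSST libraries included. Among the MK-801 libraries it was at 0 in SCZ+c-MSST replicate 5 and at 8.15 to 20.6 CPM in the other 7. No fold is given for it.

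Likeness to Drd2 was also ranked over the 11 saline libraries by Pearson's r of log2 CPM, as a description, since the libraries share the split and library depth. The 10 nearest genes averaging at least 1 CPM included Sh3rf2, Syndig1l, Pde7b, Cd4, Penk, Ppp1r1b, Nexn, Slc35d3 and Pcp4, with r of 0.97 to 0.99. Pde7b, a cyclic AMP phosphodiesterase, followed Drd2 at r = 0.99 but missed the call, with 86.8 to 130 CPM against 33.8 to 68.8. Nexn, an actin-binding protein, was at 10.1 to 13.1 CPM against 3.17 to 5.64, a log2 difference of 1.43 ± 0.16. Pcp4, a calmodulin regulator of MSNs and deep cortical layers, was at 90.0 to 138 CPM against 45.5 to 75.8. In the 8 MK-801 libraries the r of the 10 genes with Drd2 was 0.84 to 0.99.

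The 23 genes called lower in Drd2-high libraries were smaller in fold, with a median log2 difference of -0.37, and 1 of them (Neurod2) belonged to any list. Neurod2, a transcription factor of cortical excitatory neurons, was at 74.4, 68.2, 64.7, 64.9 and 73.8 CPM in Drd2-high and 81.5 to 102 in Drd2-low libraries, a log2 difference of -0.37 ± 0.07. The cortical excitatory list as a whole had 1 of 12 called lower and a median of -0.14, with a summed level of 7115 to 8724 CPM against 7453 to 9606. Slc17a7, the vesicular glutamate transporter of cortex, was at 921 to 1221 CPM against 1053 to 1441. The defining markers of the labelled cortical tissue were thus abundant in every library. Chrd, the BMP antagonist chordin, was at 28.4 to 33.5 CPM against 39.3 to 59.2 (-0.63 ± 0.09). Plxna1, a semaphorin co-receptor, was at 197 to 236 CPM against 245 to 313 (-0.38 ± 0.07). The other named genes of this direction, Kcns3, Adra1d, Mrpl16, Ephb2, Cemip and Spns2, differed by -0.43 to -0.63.

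Gpr85, an orphan receptor of brain, had the largest called decrease and took 2 separate levels. It was at 15.5, 16.0, 15.1, 19.1 and 13.6 CPM in Drd2-high libraries and at 36.1 to 41.7 in Drd2-low ones, a log2 difference of -1.27 ± 0.08. In MK-801 libraries, all of them above the Drd2 threshold, 2 levels occurred again: Gpr85 was at 14.8 to 17.8 CPM in SCZ replicates 2 and 3 and SCZ+c-MSST replicates 4 and 5, and at 37.8 to 44.6 in the other 4. The slope on Drd2 there was 1.05 ± 0.68, of the opposite sign and not called (edgeR adjusted p = 0.853).

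Other cell types that a dissection could hold were checked with marker lists. The 14 myelin genes all had positive differences, with a median of 0.36, but 0 were called and the summed level overlapped widely (2633 to 4263 against 1002 to 4504 CPM). Septal and medial forebrain markers had 0 of 9 called and a median of 0.12, ventral striatal markers 0 of 6 and a median of 0.72, striosome markers 0 of 6 and a median of 0.26, and claustral and insular markers 0 of 6 and a median of 0.06. Astrocyte, microglial, endothelial and oligodendrocyte precursor lists had medians of -0.03, 0.09, 0.08 and 0.04, with no member called. Upper-layer, prelimbic and cortical interneuron lists had medians of 0.07, -0.16 and -0.06 and no call. The deep-layer list had 1 of 12 called: Syt6, a synaptotagmin of corticothalamic neurons, at 48.6 to 71.7 CPM against 15.6 to 34.8 (1.15 ± 0.21). Immediate early genes had 12 of 15 negative differences, a median of -0.21 and no call.

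Choroid plexus transcripts marked 2 Drd2-low libraries. Ttr, the transthyretin gene that defines this tissue, was at 1620 CPM in Control replicate 2 and 154 in Control replicate 3, and at 0.0292 to 7.05 in the other 9 saline libraries. The choroid list summed to 5.00 to 1859 CPM in Drd2-low and 5.42 to 23.4 in Drd2-high libraries, with 0 of 10 members called and a median of -2.10. Its part in the class difference was not tested beyond leaving both libraries out. Without them, 30 genes were called in place of 133, and 5 of the 48 MSN markers in place of 25, while their median log2 difference was 1.04 in place of 1.11 and 47 of 48 stayed positive.

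**Figure D3:**
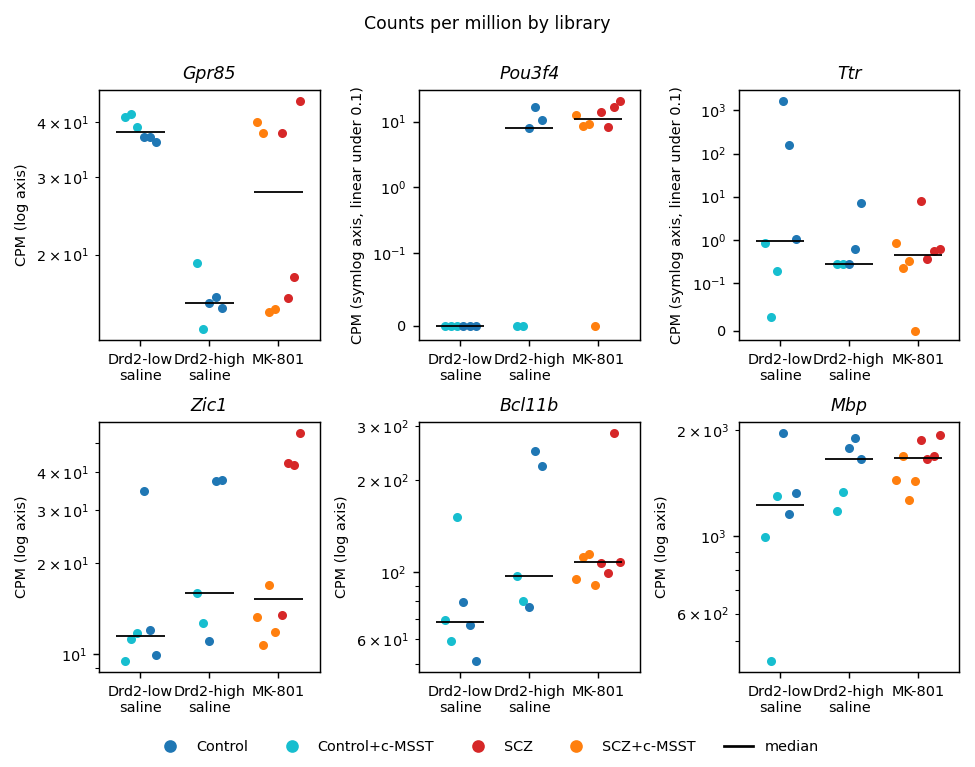
Level of 6 genes in each library, in CPM, by Drd2 class and for the MK-801 libraries; points are libraries coloured by group, bars are medians, and axes are logarithmic (linear under 0.1 for Pou3f4 and Ttr). Gpr85 takes 2 levels that follow the class in saline but not in MK-801 libraries, Pou3f4 is at 0 in 8 saline libraries, Ttr is high in Control replicates 2 and 3, and Zic1, Bcl11b and Mbp overlap between classes.

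The number of calls rested on the whole set of libraries more than the size of the differences did. Leaving out 1 saline library gave 44 to 166 calls, of which 10 to 27 were MSN markers, and a median MSN difference of 1.03 to 1.21. Within the Control libraries alone, 5 genes and 0 MSN markers were called, with 47 of 48 markers positive and a median of 1.37. Within the Control+c-MSST libraries alone, 32 genes and 4 markers were called, with 45 of 48 positive and a median of 1.01. With the library total added to the model, a choice made after the data had been seen, 14 genes were called, 4 of them MSN markers, and the median was 1.15. Most MSN markers were thus higher in the Drd2-high class within each label.

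The 8 MK-801 libraries allow a test on libraries that the rule did not use. The gene lists, however, were chosen with earlier results of these data known, so their counts are not independent of the data. There the level of each gene was fitted against log2 of the Drd2 CPM, with the c-MSST label in the model, and a slope of 1 means that a gene doubles when Drd2 doubles. Of 16438 genes, 38 (0.231%) had a positive slope at an adjusted p under 0.05 and 0 a negative one by edgeR, with 1175 at an unadjusted p under 0.05. DESeq2 called 178, of which 123 were positive. Of the 38, 19 were MSN markers, so 19 of 48 markers rose with Drd2. A positive slope was fitted for 44 of 48 markers and for 49.4% of all genes. The median slope was 0.56 over the markers against -0.0022 over all genes.

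The genes of the 2 sets overlapped. Of the 110 genes called higher in Drd2-high saline libraries, 24 (21.8%) were called in the MK-801 libraries, which is 63.2% of the 38 called there, and 101 of the 110 had a positive slope, with a median of 0.39. All 38 genes had a positive difference in saline. Over all genes tested, 49.4% had a positive slope in MK-801 libraries and 49.1% a positive difference in saline. Of the 23 genes called lower in saline, 16 had a negative slope in MK-801 libraries, with a median of -0.06, and none was called (smallest edgeR adjusted p = 0.633). The lower genes of the saline split were therefore not found again with Drd2 in MK-801 libraries, which does not show that they are unrelated to it.

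Syndig1l had the smallest p of the MK-801 fit. It ran from 26.5 to 91.1 CPM over the 8 libraries, with a slope of 1.35 ± 0.09 (SE, edgeR adjusted p = 0.000367) and r with Drd2 of 0.99. Ppp1r1b ran from 256 to 550 CPM, with a slope of 0.89 ± 0.06 (edgeR adjusted p = 0.00039). Pde1b ran from 288 to 520 CPM, with a slope of 0.62 ± 0.06 (edgeR adjusted p = 0.00191). Pde10a ran from 319 to 1009 CPM and rose most steeply of these shared enzymes, with a slope of 1.25 ± 0.10 (edgeR adjusted p = 0.00255). These 4 genes were called in the saline split too.

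In all, 14 genes not called in the saline split were called with Drd2 in MK-801 libraries. Adora2a, at 31.3 to 80.8 CPM, had a slope of 0.94 ± 0.12 (edgeR adjusted p = 0.0146). Scn4b, at 227 to 546 CPM, had a slope of 1.00 ± 0.10 (edgeR adjusted p = 0.00552). Adcy5 rose with a slope of 0.58 ± 0.06 (edgeR adjusted p = 0.00255) and Rgs9 with 0.83 ± 0.09 (edgeR adjusted p = 0.00732), both being called in saline as well. Other genes called in both sets included Actn2, an actin-binding protein, Rasd2, a small GTPase enriched in striatum (also called Rhes), and the G-protein γ subunit Gng7. Outside the MSN lists, Htr1b, a serotonin receptor, and Tgfa, a growth factor, were called in both.

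The MSN lists gave these counts, and no test compared the lists. In the MK-801 libraries 17 of 30 shared markers, 2 of 9 D2-type markers and 0 of 9 D1-type markers were called, with median slopes of 0.57, 0.75 and 0.26. All 9 D1-type slopes were positive. Drd1 had a slope of 0.60 ± 0.15 (edgeR adjusted p = 0.3) and Tac1 of 0.23 ± 0.31 (edgeR adjusted p = 0.967), against 0.78 ± 0.14 for Penk (edgeR adjusted p = 0.13). Cholinergic markers had 7 of 7 positive slopes, with a median of 0.91 and 0 called. Ventral striatal markers had 0 of 6 positive slopes, with a median of -0.76 and 0 called. Myelin genes had 13 of 14 positive slopes, with a median of 0.18 and 0 called.

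**Figure D4:**
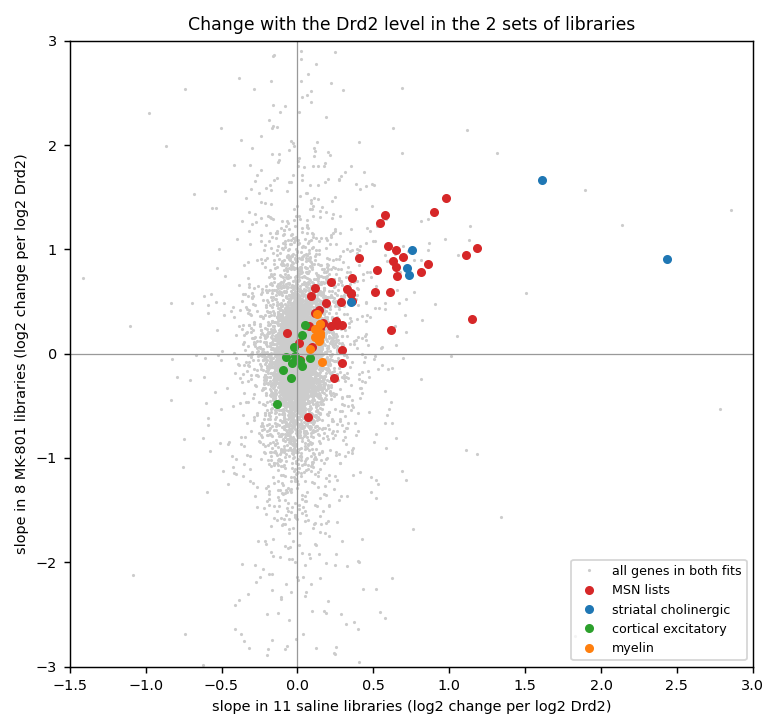
Slope of each gene on log2 Drd2 in the 11 saline libraries (x axis) against that in the 8 MK-801 libraries (y axis), with 16137 genes in grey, 58 of which lie beyond the axes, and 4 groups of markers coloured. Most MSN markers lie in the upper right, where both slopes are positive. Cortical excitatory markers have median slopes of -0.02 in saline and -0.05 in MK-801 libraries. Myelin markers have median slopes of 0.14 and 0.18, in the same order.

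This count depended on single libraries. Without SCZ+c-MSST replicate 3, which held the highest Drd2 and the highest Pde10a, 4 genes were called, all of them MSN markers. Leaving out another MK-801 library gave 18 to 45 calls, 11 to 21 of them MSN markers, with 18 without SCZ+c-MSST replicate 2, 22 without SCZ replicate 2, 22 without SCZ replicate 3 and 23 without SCZ+c-MSST replicate 5. The median MSN slope stayed at 0.49 to 0.60 in every such fit. The number of calls moved with SCZ+c-MSST replicate 3, while the median slope changed little.

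The c-MSST comparison within saline was fitted with and without the Drd2 class. With the class in the model 0 of 16252 genes (0%) passed an adjusted p of 0.05 by edgeR, with 1973 at an unadjusted p under 0.05. Without it 0 of 15892 genes passed (0%), with 1931 at an unadjusted p under 0.05. DESeq2 called 220 and 154 genes, respectively. The class term therefore did not change the edgeR count of c-MSST genes.

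The product of class and label was called for 1 of 16510 genes (0.00606%), Slc25a22, a mitochondrial glutamate carrier. Its log2 difference of differences was -1.17 ± 0.11. Because the class was chosen on Drd2, this call too is a description, and the Drd2-high Control+c-MSST cell held only 2 libraries. Slc25a22 was at 74.8 and 75.6 CPM in the Drd2-high and 183 to 199 in the Drd2-low Control+c-MSST libraries. In Control libraries it was at 135 to 147 CPM in the Drd2-high and 144 to 178 in the Drd2-low class. The 2 classes were thus separated in Control+c-MSST libraries and overlapped in Control libraries.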

How the data were processed

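Bulk RNA-seq of left prelimbic cortex was analysed for 19 libraries, grouped by the titles in the labels. The values used were the authors' deposited estimated counts per gene (already whole numbers, used without rounding) and their deposited FPKM. The submitters' processing notes name fastp 0.19.5, STAR 2.7.7a, Picard 2.18.29, StringTie 1.3.5 and mm10, with no role for each. The annotation and the use of strand are not given in the sources used here. CPM is a gene's count per 1000000 counts of its library, and totals ran from 50140626 to 82416746.

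The class fit used edgeR 4.0.16 (quasi-likelihood, TMM, default low-count filter) in R 4.3.3 with class and c-MSST label as terms. The MK-801 fit used log2(Drd2 CPM + 0.5) and the label. Adjusted p is edgeR's with Benjamini-Hochberg adjustment over all genes tested, threshold 0.05. DESeq2 1.42.0 and limma 3.58.1 (log2 FPKM + 1 or + 0.1) were alternatives. Only the edgeR class fit and the edgeR MK-801 slope fit were tested on simulated data. Counting error alone is covered by the limit of 3 counts that a 0 allows. The members and gene lists were chosen with earlier results of these data known. Named genes were the 12 most abundant MSN markers plus Drd1, Adora2a, Penk and Tac1, the 10 largest called changes in each direction and the 10 highest r with Drd2 (mean of at least 1 CPM, predicted names left out), the 2 most abundant and up to 2 called members of other lists, and the 5 smallest p in the MK-801 fit. Other genes named are members of these lists or single genes chosen after their values were seen. Gene positions are from GENCODE M21 and promoters from RefSeq, both on GRCm38. Some genes that met the naming rule are not reported here.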

Additional observations from a re-analysis of the deposited data

Results flagged for a closer look

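In all, 196 groups of libraries were looked at, each a named gene or a library measure (total counts, genes detected, top 20 share) in 1 class. Of these, 15 held a library far from all the others of its class. The cut-off flags about 1 group in 20 only where values are independent and normally distributed. Counts here include zeros, and several flagged genes share a library, so no excess over that rate is read from the 15. In the Drd2-low class, Control replicate 2 stood apart for Ttr (1620 CPM), Kl (88.8), Dnah6 (19.5) and Foxj1 (9.58), genes of choroid plexus and ciliated ependyma, all at their highest there. Control replicate 3 stood apart for Dlk1 (18.0 CPM), Ecel1 (11.2) and Reln (316), at their highest, and for Camk2a (3772), at its lowest. Control+c-MSST replicate 4, the Drd2-low library with the most Drd2, was highest for Slc35d3 (3.71 CPM) and Rarb (13.1), both MSN markers. Control+c-MSST replicate 7 was highest for Bcl11b (151 CPM), and Control replicate 7 was the only Drd2-low library with counts for Lhx8 (0.0608 CPM). In the Drd2-high class, Control replicate 4 was highest for Dsg1c (3.60 CPM), Control replicate 5 for Ttr (7.05) and Control replicate 1 for Hba-a1 (70.4), an α-globin gene with a near-identical copy between which counts can be split. The causes were not tested.

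The fitted class difference of Slc25a22 was unlike in the 2 saline labels, with a log2 difference of -1.17 between Control+c-MSST and Control. This describes classes chosen on Drd2, with 2 Drd2-high libraries in Control+c-MSST. In the MK-801 libraries the gene stood at 69.6 to 82.3 CPM in 5 libraries and at 139 to 152 in the other 3, and both levels occurred with and without c-MSST.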

How the results depend on the processing

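Counts of calls depended on the method more than directions did. For the class (133 genes), DESeq2 called 472, the threshold of 10 CPM gave 52 and 40 CPM gave 85, the Drd2 level in place of the class gave 287, Control libraries alone 5, Control+c-MSST libraries alone 32, limma on log2(FPKM + 1) 71 and on log2(FPKM + 0.1) 76. The fits chosen after seeing the data gave 30 without Control replicates 2 and 3 and 14 with the library total as covariate. Leaving out 1 library gave 44 (without Control+c-MSST replicate 1) to 166 (without Control replicate 1), with 59 when Control+c-MSST replicate 6 was dropped, 47 for Control+c-MSST replicate 7, and 59, 74, 51 and 49 for Control replicates 2, 3, 4 and 5 in turn. For the MK-801 slope (38), DESeq2 called 178 and leaving out 1 library gave 4 to 45. For c-MSST, DESeq2 called 220 with the class and 154 without it, and leaving out 1 library gave 0 to 1. For the product term (1), DESeq2 called 24 and leaving out 1 library gave 1 to 230, the 230 without Control replicate 7. The causes were not tested. Of the genes named by the rule, the sign turned under at least 1 alternative for 0 of the 42 called in saline, 0 of 17 called slopes and 25 of the 53 not called in saline, among them Grik3, at 0.07 with all 11 libraries and -0.20 in Control+c-MSST libraries alone. Other normalizations and low-count filters, run for all but the product term, kept the counts within 1.5 times.

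The deviations of same-numbered libraries correlated at 0.01, -0.10, -0.07 and 0.24 in saline and at -0.01, -0.03 and -0.02 in MK-801. Differently numbered libraries were not set beside them, so pairing by replicate number was not decided. With the replicate block the class fit called 0 genes (990 at an unadjusted p under 0.05), while 46 of 48 MSN markers were positive with a median of 1.13. The slope fit called 45 (24 positive, 9 shared with the 38) and both c-MSST fits 0. In saline only replicate numbers 1, 2, 4 and 7 occurred in both groups, and the class differed only within numbers 2 and 4. The block thus left few degrees of freedom in both sets, and nothing is read from its counts of calls. A split of the MK-801 libraries at 20 CPM was not run, because all 8 lie above it.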

Other observations

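Zic1 took separate levels in both Drd2 classes. This transcription factor of the medial forebrain reached 34.8 to 37.7 CPM in 3 saline libraries (Control replicates 2, 4 and 5) and lay at 9.50 to 15.9 in the other 8 saline libraries. In the MK-801 libraries it was at 42.3 to 53.9 CPM in SCZ replicates 2, 3 and 5 and at 10.8 to 16.9 in the other 5. Zic4, of the same septal and medial forebrain list, was higher in the same libraries. It had 271 to 451 counts in Control replicates 2, 4 and 5 and 80 to 164 in the other saline libraries. In SCZ replicates 2, 3 and 5 it had 365 to 502 counts, against 138 to 176 in the other MK-801 libraries. All 6 libraries at the higher level were without c-MSST, as were 4 at the lower level, and no test of this was run here. Control replicates 4 and 5 also held the highest Bcl11b of the saline libraries, and Control replicate 2 the highest Ttr.

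Gng2, a G-protein γ subunit, was at 12.8 CPM in SCZ replicate 2 and at 161 to 225 in the other 18 libraries.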
